A study of Mus musculus with 4 samples.

Results

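The hair bundle is the mechanosensitive organelle of hair cells, and 37 genes of its stereocilia and of mechanotransduction were followed in E18.5 organs of Corti that had lost Tbx2. The genes were chosen by name for their known part in the bundle. The selection rule used no measured value, but the list was drawn up with earlier results of these data known. They were read by 66 of the 39429 probes of the array, which carry the names of 30011 genes. Each gene was represented by its brightest probe. Of the 37 genes, 36 were bright enough to be tested, and Tmc2 was not.

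A hair bundle is a staircase of actin-filled stereocilia on top of each hair cell. Tip links made of cadherin 23 and protocadherin 15 pull on a transduction channel formed by TMC proteins and their partners when the bundle is deflected. Other links, unconventional myosins, actin crosslinkers and proteins of the stereocilia base set the shape and length of the bundle, and mutations in many of these genes cause deafness. Inner hair cells (IHCs) pass sound information to the brain, and outer hair cells (OHCs) amplify it. Both carry a bundle, with a different shape in each.

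Each of 4 two-colour Agilent oligonucleotide arrays compared a pool of Sox2-Tbx2LOF organs of Corti with a pool of control ones, giving n = 4 pools per genotype, all of strain NMRI. Sox2-Tbx2LOF embryos were labelled Sox2(creERT2);Tbx2(fl/fl). They carried a tamoxifen-dependent Cre recombinase in the Sox2 locus, so that recombination depended on Sox2 expression in the cell, and by the breeding scheme an mTmG reporter allele. Controls were labelled Tbx2(fl/n.d.) and had no Cre. Littermates of the same cross without Cre would carry the reporter allele too. Dams of both groups received 4 mg of tamoxifen at E16.5 and, by the study's methods, progesterone as well. The basal portion of each organ of Corti was dissected at E18.5. Sox2-Tbx2LOF RNA was labelled with Cy3 on arrays 1 and 3 and with Cy5 on arrays 2 and 4. Arrays 1 and 2 held female pools, and arrays 3 and 4 held male pools.

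All 4 arrays came from 1 slide and 1 scan. On each array 69.7% to 74.6% of the probes were well above background in either channel, and between 3.23% and 3.56% of the spots were outliers and were left out. Tbx2 itself was read by 1 probe, which starts at base 3502 of transcript NM_009324. Its log2 ratio was -0.06, -0.24, -0.02 and -0.30 on arrays 1 to 4 (limma adjusted p = 0.313). The deleted part of the gene is not given in the sources used here, so that this probe does not check the genotype. Markers of hair cells (7 genes), OHCs (5 of 6) and supporting cells (8) were measured, while Slc26a5, which encodes the OHC motor prestin, was not well above background on enough arrays to be tested. Among 5 IHC markers, 4 were lower in Sox2-Tbx2LOF at an adjusted p under 0.05, with log2 ratios of -1.57 for Fgf8, -1.17 for Cabp2, -0.66 for Slc17a8 and -0.40 for Otof. The remaining IHC marker, Calb2, was at 0.0059 and did not pass. The IHC list averaged a log2 level of 9.18 to 9.44 over Sox2-Tbx2LOF pools and 9.82 to 10.18 over control pools. No tested OHC marker or general hair cell marker passed this test. The ratios of the tested OHC markers ran from -0.10 (Insm1) to 0.26 (Ocm, adjusted p = 0.0991). Of the supporting cell markers, Hey2 was higher by 0.29 (adjusted p = 0.0409). The 6 mesenchyme markers had a median of 0.12 and none passed.

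Differences in the bundle genes were small. Strc, which encodes stereocilin of the links between stereocilia tips, rose by 0.38 ± 0.056 (SE, n = 4 arrays) on the log2 scale, a 1.30-fold difference, at an adjusted p of 0.0176 in limma's moderated test. It was 1 of 36 tested members (2.78%) at an adjusted p under 0.05, where 0.987% of all 28079 tested probes lay. In the upward direction alone this share was 0.449% of all probes. No member fell by this test, and 0.538% of all probes did. None of the 36 was called, for which a gene had to differ 1.5-fold or more besides having an adjusted p under 0.05. Over all probes 0.249% were called, 34 of them higher and 36 lower.

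Small differences were more frequent among the members than among all probes. An unadjusted p under 0.05 was found for 11 of 36 members (30.6%), as against 7.12% of all probes. Of these 11, 8 were higher in Sox2-Tbx2LOF (Strc, Myo3a, Espn, Fscn2, Lhfpl5, Loxhd1, Tmie and Cib2) and 3 were lower (Tmc1, Ush1g and Grxcr1). Such a share was not particular to the members. An unadjusted p under 0.05 was also found for 4 of 8 supporting cell, 3 of 6 mesenchyme and 3 of 7 general hair cell markers. It was found for 4 of 5 IHC and 2 of 5 tested OHC markers, and for 1 of 4 greater epithelial ridge and 1 of 4 glia markers. It was found for 2 of 29 other bundle genes, described below, and for none of the neuron, macrophage, vessel or tested blood markers. The log2 ratio had the same sign on all 4 arrays in 10 members (27.8%), as against 9.01% of all probes. The channel levels of the 4 Sox2-Tbx2LOF pools did not overlap those of the 4 control pools in 6 members (16.7%), as against 2.53% of all probes. These were Strc, Espn, Lhfpl5, Tmie, Tmc1 and Grxcr1. No test was run of the gene list as a whole. The direction was mixed, with 25 members higher and 11 lower, a median log2 ratio of 0.07 and a range from -0.26 (Tmc1) to 0.38 (Strc). The median over all tested probes was 0.00235, and 52.0% of them were higher. In 23 members the log2 ratio was smaller than 0.1 in either direction. In pooled tissue a lower level of a bundle gene per hair cell cannot be told apart from fewer hair cells of the type that uses it.

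**Figure D1:**
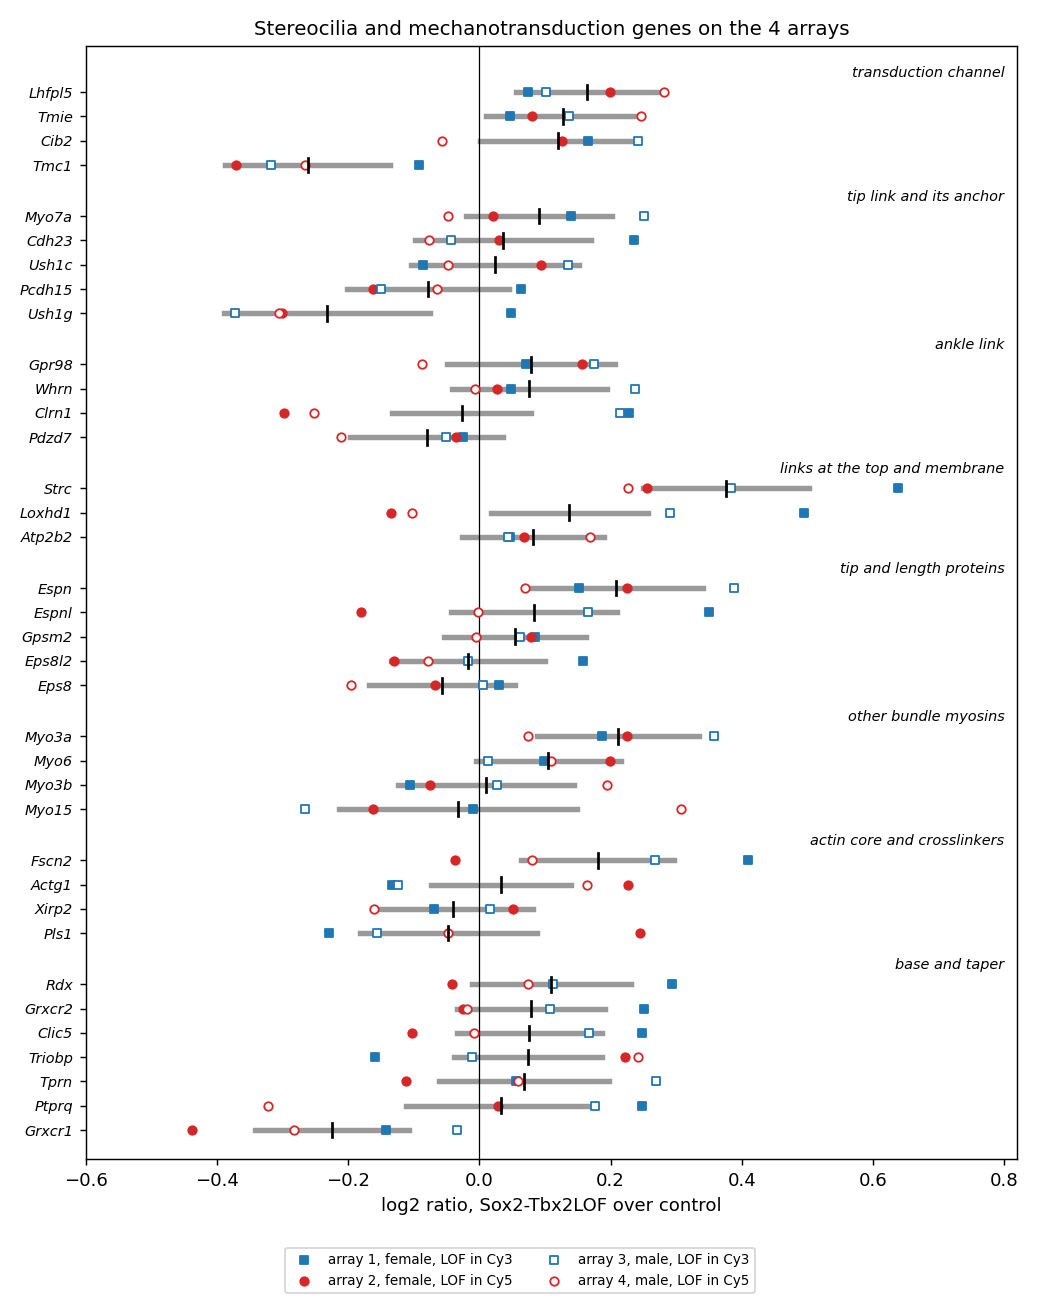
Log2 ratio of Sox2-Tbx2LOF over control (x axis) for the 36 tested genes, grouped by role and sorted within each group. Squares and circles are single arrays, short black lines the limma estimate and grey bars its 95% interval. All 4 arrays lie to the right of 0 for Strc, and all 4 lie to the left for Tmc1 and Grxcr1.

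**Figure D2:**
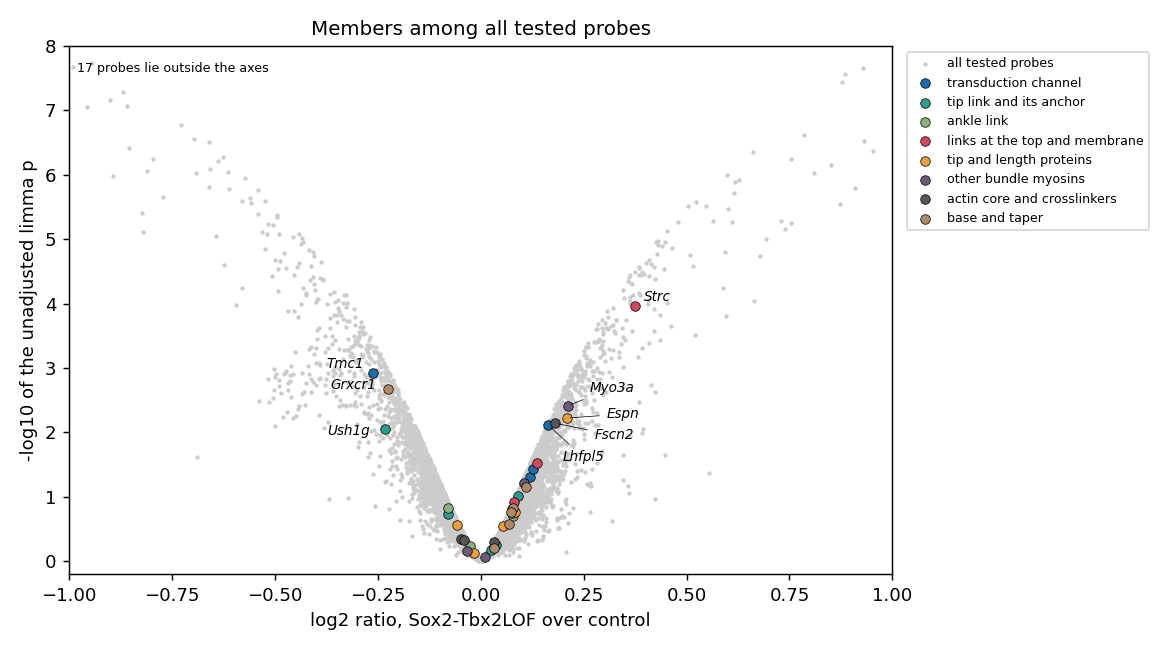
Log2 ratio (x axis) against the -log10 of the unadjusted limma p (y axis) for all 28079 tested probes in grey and the 36 members in colour, with 17 probes outside the axes. Most members sit in the dense centre, Strc is the one member past an adjusted p of 0.05, and Tmc1, Grxcr1 and Ush1g lead on the left side.

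The precision of the arrays sets what could be seen. The SE of the members' log2 ratios ranged from 0.046 to 0.080, with a median of 0.052. For the 35 tested members that did not pass, the 95% intervals reached no further than -0.39 and 0.34 on the log2 scale, that is a 1.31-fold lower and a 1.27-fold higher level. All 35 intervals thus stayed inside the 1.5-fold limit. In a simulation of this comparison on 28079 probes, the fit recovered 90% of 50 probes changed by 0.4 on the log2 scale and 2% of 50 probes changed by 0.2, so that true differences as small as those measured for most members would rarely pass.

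The links at the top of the stereocilia and the membrane proteins grouped with them held the member with the largest increase. The beginning of the probe that reads Strc is shown because this gene alone passed the test. The whole probe has 60 bases and lies on mm9 at chr2:121189571-121189630, starting at base 5589 of transcript NM_080459. No base is marked in it.

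Strc, probe bases 1 to 30: taagtggatgaggattgtgggtaaaattcc

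The channel level of Strc was 9.44, 9.46, 9.71 and 9.53 in Sox2-Tbx2LOF pools 1 to 4 and 8.80, 9.21, 9.33 and 9.31 in the control pools of the same arrays (log2 intensity). The lowest Sox2-Tbx2LOF pool was above the highest control pool, and control pool 1 was well below the other controls. The log2 ratios were accordingly 0.64, 0.26, 0.38 and 0.23 on arrays 1 to 4, with array 1 the highest. Without array 1 the ratio was 0.31 and the adjusted p 0.0639, so that the adjusted p under 0.05 rested on that array. The ratio was positive in both dye orientations, with a mean of 0.51 where Sox2-Tbx2LOF was in Cy3 and 0.24 where it was in Cy5. Over 15 alternative settings with an adjusted p, this p lay between 0.00856 and 0.447 and was under 0.05 in 10, while the ratio lay between 0.31 and 0.44. In the same pools Ocm of the OHC list was higher by 0.26 with groups that did not overlap, but did not pass the adjusted test. Of the 5 tested OHC markers, 3 were higher and 2 were lower, Insm1 at -0.10 and Ikzf2 at -0.04. Whether the values of Ocm and Strc share a source was not tested.

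Loxhd1, a membrane-associated protein of stereocilia, had a dye part larger than its genotype part on its brightest probe. The log2 ratio of this probe was 0.50, -0.13, 0.29 and -0.10 on arrays 1 to 4. It was thus positive on both arrays with Sox2-Tbx2LOF in Cy3 and negative on both with it in Cy5, and the groups overlapped. The mean over arrays, in which the balanced dye orientations cancel, was 0.14 ± 0.052 (SE, adjusted p = 0.560). Without array 1 it was 0.09 (adjusted p = 0.983). A total of 4 Loxhd1 probes were tested. All were higher, from 0.02 to 0.17, and the brightest was that just described. The next brightest gave 0.45, 0.03, 0.15 and 0.03 on arrays 1 to 4, and the one after it 0.06, 0.19, 0.25 and 0.15. Both were thus positive in both dye orientations. The dimmest gave 0.14, -0.05, -0.06 and 0.03. None passed the adjusted test. Atp2b2, the plasma membrane calcium pump of stereocilia, showed 0.05, 0.07, 0.04 and 0.17, all positive but small, with an estimate of 0.08 (adjusted p = 0.977). A further Atp2b2 probe gave 0.07.

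The transduction channel group was divided in direction. Tmc1 encodes a pore-forming subunit of the channel. It had the lowest ratio of all members.

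Tmc1, probe bases 1 to 30: gctgtcagacttttgttatcactagactat

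This probe lies on mm9 at chr19:20857948-20858007 and starts at base 4013 of NM_028953. Channel levels of Tmc1 were 8.67, 8.54, 8.65 and 8.74 in Sox2-Tbx2LOF pools 1 to 4 and 8.76, 8.91, 8.97 and 9.01 in the controls. All 4 mutant pools were below the lowest control pool, though by a small margin. The log2 ratios of -0.09, -0.37, -0.32 and -0.27 gave an estimate of -0.26 ± 0.055 (SE), 1.20-fold lower but not past the test (adjusted p = 0.0870). The other Tmc1 probe, designed on the clone AK016832, gave -0.05 (adjusted p = 1.00), so that both were lower but by different amounts. With both probes averaged, Tmc1 was at -0.16 (adjusted p = 0.284). Tmc2, the paralogue used in the immature bundle, was well above background on 2 arrays in either group, and its ratios of 0.07, -0.03, 0.13 and 0.02 have no test.

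The partners of the channel were higher on most arrays. Lhfpl5, which couples the tip link to the channel, had log2 ratios of 0.07, 0.20, 0.10 and 0.28, all positive, with levels of 13.27 to 13.36 in Sox2-Tbx2LOF and 12.99 to 13.24 in control pools. Its estimate of 0.16 ± 0.047 (SE) did not pass (adjusted p = 0.262). A second Lhfpl5 probe, of the predicted transcript XM_006524433, pointed the other way at -0.04 (adjusted p = 1.00), and the average of both Lhfpl5 probes was 0.06 (adjusted p = 1.00). Tmie, a channel subunit needed for transduction, was at 0.05, 0.08, 0.14 and 0.25, with pools that did not overlap and an estimate of 0.13 (adjusted p = 0.623). Cib2, a calcium-binding partner of the TMC proteins, was at 0.17, 0.13, 0.24 and -0.06. It was positive on all arrays but the last, and its estimate was 0.12 (adjusted p = 0.694). Without array 2 this was 0.07 (adjusted p = 1.00). The group therefore held the lowest ratio of the whole set, in Tmc1, next to positive ratios in the 3 other tested genes.

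Neither cadherin of the tip link passed the test. Cdh23, the upper part of the tip link, was at 0.24, 0.03, -0.04 and -0.08, positive in both female pairs and negative in both male pairs, and its estimate was 0.04. Pcdh15, the lower part, was at 0.06, -0.16, -0.15 and -0.07 with an estimate of -0.08. Pcdh15 transcripts differ in their 3' ends, and 7 probes to several of them were on the array. Of these 6 were tested. Their estimates ran from -0.08 to 0.02, and none of them passed. For both cadherins the groups overlapped and the adjusted p was 1.00.

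Among the anchors of the upper tip link, Ush1g had the lowest ratio. It encodes the scaffold protein Sans.

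Ush1g, probe bases 1 to 30: gtgaccctcgccgttgtaccccaaaccctt

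Levels of Ush1g were 11.03, 10.89, 10.44 and 10.68 in Sox2-Tbx2LOF pools and 10.99, 11.19, 10.81 and 10.98 in controls, and the groups overlapped. The log2 ratio was 0.05, -0.30, -0.37 and -0.31, so that array 1 differed from the other 3. The estimate over 4 arrays was -0.23 ± 0.069 (SE, adjusted p = 0.282). Without array 1 it was -0.34 with an adjusted p of 0.0432, and without array 3 it was -0.13 with an adjusted p of 0.752. Myo7a, the motor at this anchor, was at 0.09 (adjusted p = 0.905), and Ush1c, encoding harmonin, was at 0.02 and 0.01 on its 2 tested probes.

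**Figure D3:**
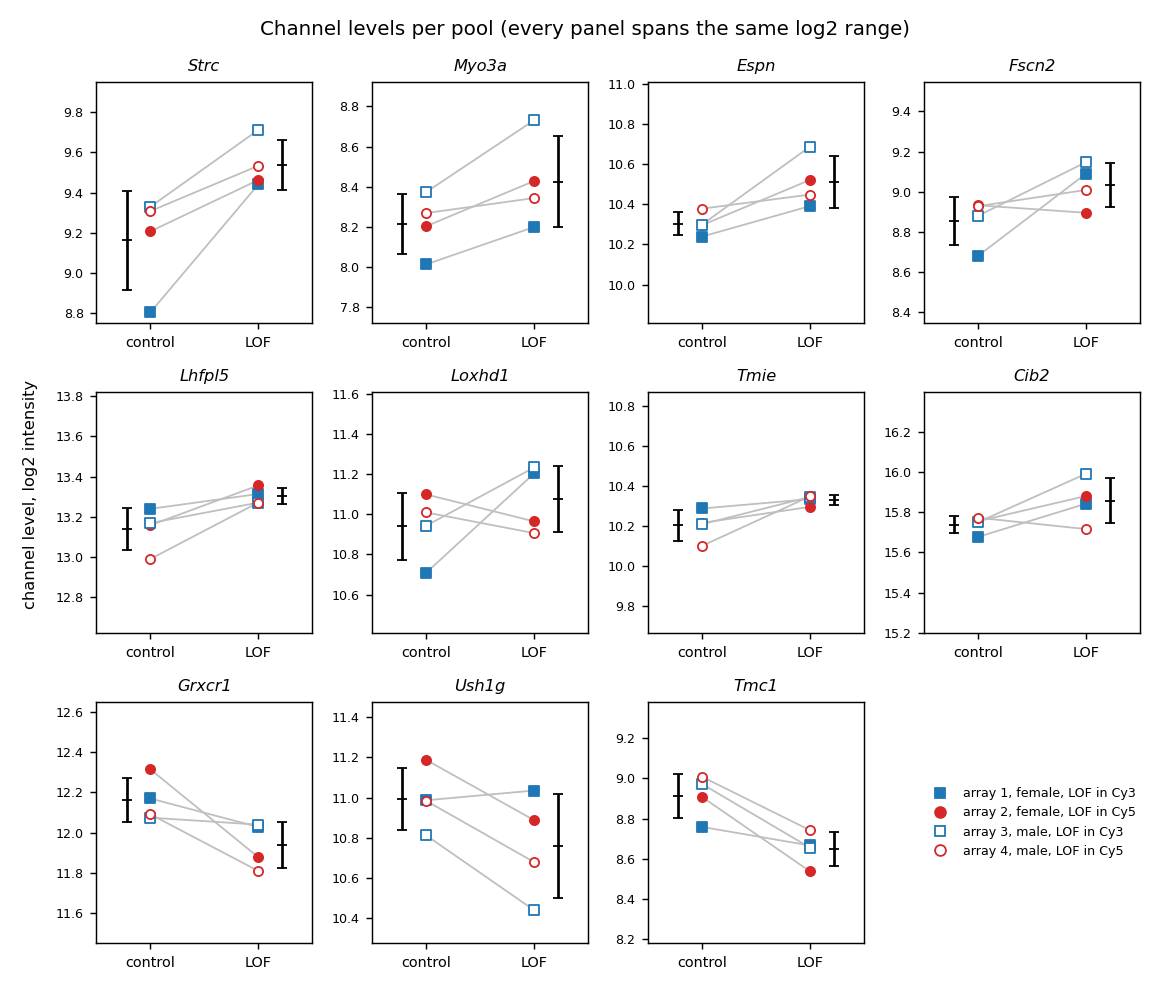
Channel level (y axis, log2 intensity) of the 11 genes with an unadjusted p under 0.05 in control and Sox2-Tbx2LOF (LOF) pools, with grey lines joining the pools of 1 array and bars giving mean ± SD of 4 pools. For Strc, Espn, Lhfpl5, Tmie, Tmc1 and Grxcr1 the pools of the groups do not overlap, and the lines of Loxhd1 cross.

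No gene of the ankle links, at the base of the growing bundle, passed the test. Gpr98, the large adhesion receptor of these links, was at 0.08, its scaffold Whrn at 0.08, Pdzd7 at -0.08 and Clrn1, encoding clarin, at -0.03, all with an adjusted p of 1.00. The arrays behind these means were not alike. Clrn1 was at 0.23, -0.30, 0.22 and -0.25 on arrays 1 to 4 and thus followed the dye. Pdzd7 was negative on all arrays, with -0.03, -0.04, -0.05 and -0.21. The dimmer of the tested Whrn probes gave -0.00233.

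Proteins of the stereocilia tips and of length control included Espn, which encodes the actin bundler espin. Its probes overlap by 18 bases, shown in capitals, so that they are not independent readings of the gene.

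Espn, brightest probe, bases 1 to 30: GGGGAGATCCCTAAGTAAtaggagtctctc
Espn, second probe, bases 31 to 60: atcttgaagaagGGGGAGATCCCTAAGTAA

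With the brightest probe, at chr4:151495188-151495247 on mm9, levels of Espn were 10.39, 10.52, 10.69 and 10.45 in Sox2-Tbx2LOF and 10.24, 10.30, 10.30 and 10.38 in control pools. The groups did not overlap, by a narrow margin. The log2 ratios of 0.15, 0.23, 0.39 and 0.07 gave 0.21 ± 0.057 (SE, adjusted p = 0.223). The second probe gave 0.18 (adjusted p = 0.206), but was negative on array 4. Espnl, an espin-like protein, was at 0.08 (adjusted p = 1.00) with arrays from -0.18 to 0.35. Gpsm2, which marks the tips of the tallest stereocilia, was at 0.05, Eps8, an actin-capping protein of the tips, at -0.06 and its relative Eps8l2 at -0.02. Both Eps8 probes were slightly lower, the other at -0.08. None of these passed the adjusted test.

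Among the other myosins of the bundle, Myo3a was the highest. This motor carries espins to the tips. Its level was 8.20, 8.43, 8.73 and 8.34 in Sox2-Tbx2LOF and 8.01, 8.20, 8.37 and 8.27 in control pools, so that the groups overlapped while every mutant pool was above its own control. The log2 ratios of 0.19, 0.23, 0.36 and 0.07 gave 0.21 ± 0.054 (SE, adjusted p = 0.172). Its paralogue Myo3b was at 0.01, with a negative ratio in both female pairs and a positive one in both male pairs. Myo6, which anchors the membrane at the stereocilia base, was positive on all 4 arrays but small, at 0.10 (adjusted p = 0.766). Myo15, the motor that delivers Eps8 and whirlin to the tips, was at -0.01, -0.16, -0.27 and 0.31, and its mean of -0.03 had the largest SE of all members, 0.080.

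In the actin core, Actg1 and Pls1 varied more with the dye than with the genotype. Fscn2, encoding the crosslinker fascin 2, was at 0.41, -0.04, 0.27 and 0.08. It was much higher on the arrays with Sox2-Tbx2LOF in Cy3, and its estimate was 0.18 ± 0.051 (SE, adjusted p = 0.249). Actg1, gamma actin, was at 0.03, Pls1, plastin 1, at -0.05 and Xirp2, a protein that binds bundle actin, at -0.04, all with an adjusted p of 1.00. Actg1 was read by 5 probes, with estimates from -0.02 to 0.05. A pair of them is shown because the array places both on the same bases of NM_009609, and yet they differ at 4 of 50 shared positions. The stretch holds 3 of these differences, in capitals. Actin genes and their copies are alike in sequence, and which of them each probe reads could not be checked here.

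Actg1, probe starting at base 662, bases 11 to 40: actgctgaGagggaaattgttcAtTacata
Actg1, probe starting at base 672, bases 1 to 30: actgctgaAagggaaattgttcGtGacata

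Both members of the pair gave about the same result, 0.00502 and 0.05, neither past the test.

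Proteins of the base and taper had ratios slightly above 0, with 1 exception. Grxcr1, a glutaredoxin-like protein that regulates stereocilia width, was the member with the next lowest ratio after Tmc1 and Ush1g.

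Grxcr1, probe bases 1 to 30: gagcttctgcctagagaaagcctcatttca

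Its level was 12.03, 11.88, 12.04 and 11.81 in Sox2-Tbx2LOF pools 1 to 4 and 12.17, 12.32, 12.07 and 12.09 in controls. The mutant pools lay below all controls, but the gap between groups was small. The log2 ratios of -0.14, -0.44, -0.03 and -0.28 gave -0.22 ± 0.051 (SE), 1.17-fold lower but not past the test (adjusted p = 0.116). The related Grxcr2 was at 0.08. The rest of the group had estimates of 0.11 for Rdx (radixin, which links membrane and actin), 0.08 for Clic5, 0.07 for Triobp (the rootlet bundler), 0.07 for Tprn (taperin) and 0.03 for Ptprq, a phosphatase of the shaft connectors. None of them was lower, and none passed the adjusted test, with Rdx at 0.810 and the others at 1.00.

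**Figure D4:**
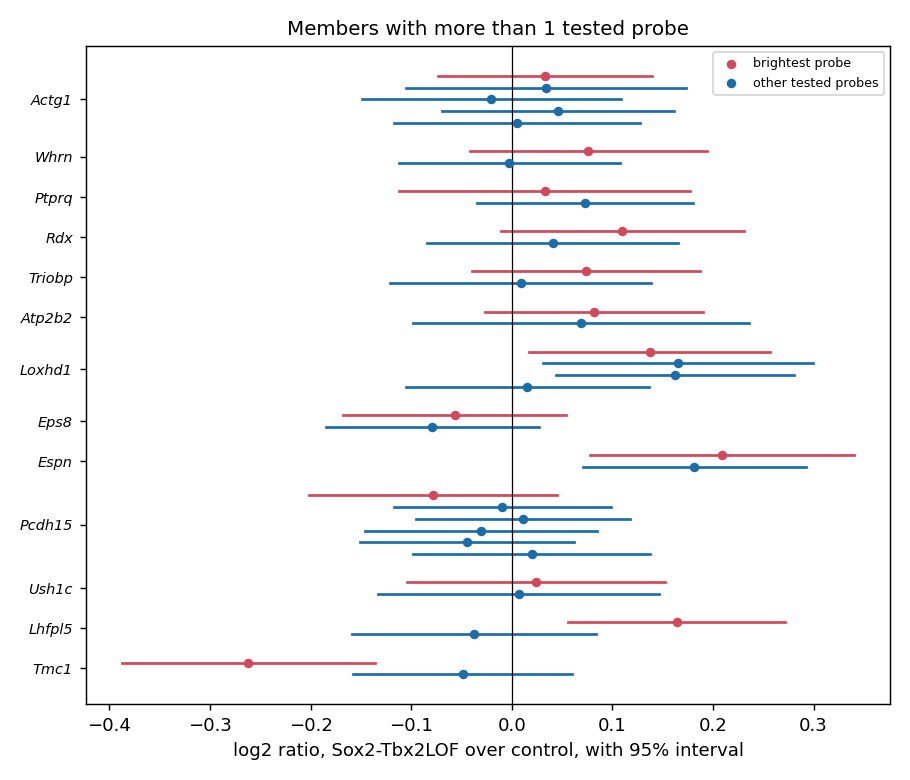
Log2 ratio with 95% interval (x axis) for each tested probe of the 13 genes with several, the brightest in red and the others in blue. Loxhd1 and Espn probes lie to the right of 0, both Tmc1 probes lie to the left at different distances, and the Lhfpl5 probes lie on opposite sides.

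Different probes of a gene usually pointed the same way. Of the 37 members, 16 had more than 1 probe and 13 had several tested probes, 58 probes in all being tested for the 36 genes. In 9 of the 13, all tested probes had the same sign. The exceptions were Actg1, Whrn, Pcdh15 and Lhfpl5. Probes of a gene share the labelled RNA and are not replicates of the comparison.

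For many members the dye made as much difference as the genotype. In 20 of 36 the mean ratio had the same sign in both dye orientations. In the other 16 the sign turned with the dye, which by definition is the same as a dye part larger than the genotype part. The shares over all probes were not counted. Of the 11 members with an unadjusted p under 0.05, Loxhd1 was the only one whose sign turned with the dye. The number of members higher was 26, 19, 25 and 14 on arrays 1 to 4. Over all probes, arrays of the same orientation correlated at 0.435 to 0.461 (Pearson's r across probes), and arrays of opposite orientation at -0.280 to -0.0883.

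**Figure D5:**
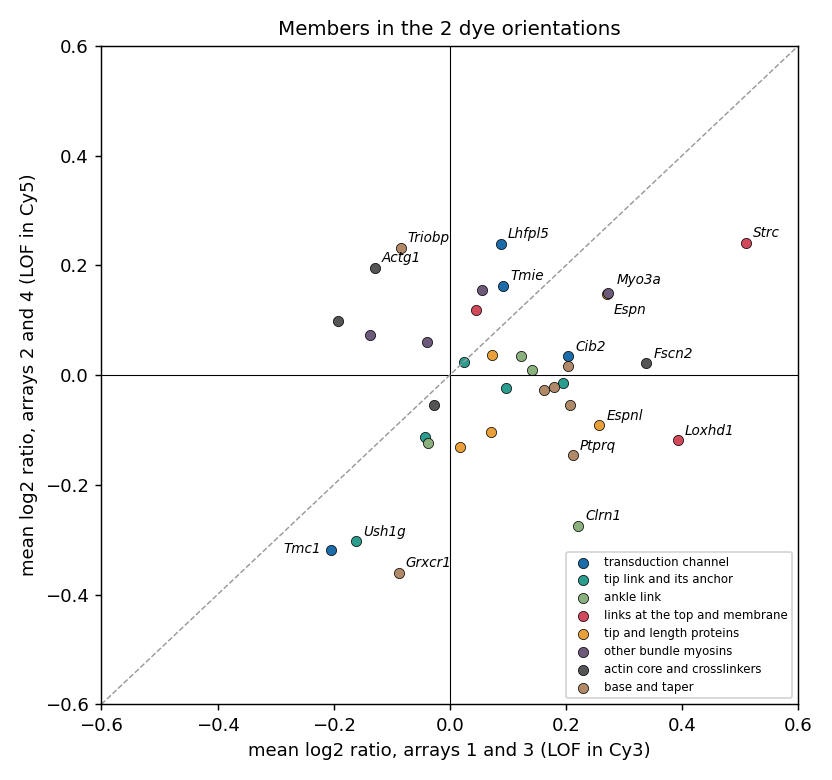
Mean log2 ratio of each of the 36 members on the arrays with Sox2-Tbx2LOF in Cy3 (x axis) and in Cy5 (y axis), with the dashed line marking equal values. Strc, Myo3a and Espn are positive in both orientations, Tmc1, Ush1g and Grxcr1 negative in both, and Loxhd1 and Clrn1 change sign.

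The effect of the genotype was also compared between female and male pools. No member differed at an adjusted p under 0.05 in limma, where the smallest was 1.00, and 0 of 36 differed at an unadjusted p under 0.05. Over all 28079 tested probes, 0 differed at an adjusted and 565 at an unadjusted p under 0.05. The 0 of 36 is therefore not a result about the members. With 2 arrays per sex this test has little power.

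Another 30 genes known from the hair bundle, among them the myosins Myo1c and Myo10 and the tip proteins Baiap2l2 and Gnai3, were read in the same way. Of these, 29 were tested, 18 were higher and 11 lower, with a median log2 ratio of 0.00776. None passed an adjusted p of 0.05 and 2 had an unadjusted p under 0.05. Their range, from -0.15 to 0.24, lay within that of the 36 members.

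The 300 bases around the gene starts, 250 before and 50 after, were searched in the RefSeq table of assembly GRCm38.p6 for short motifs, on both strands. The table held 31 of the 37 members. The core T-box sequence GGTGTGA or its complement, the letters that T-box factors such as TBX2 recognise, was found in 4 of them (12.9%), as against 3.96% of 27025 promoters. These 4 were Strc, Tmc1, Gpr98 and Xirp2, with log2 ratios of 0.38, -0.26, 0.08 and -0.04. The longer AGGTGTGA, which contains the first motif, was in 1 member, Strc, and in 1.27% of all promoters. Strc and Tmc1 are shown as the members with the highest and the lowest ratio, with the T-box letters in capitals. These letters are at 79 bases before the start in Strc, in the forward direction, and at 216 bases before the start in Tmc1, on the reverse strand.

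Strc, chr2:121380891-121381190, minus strand: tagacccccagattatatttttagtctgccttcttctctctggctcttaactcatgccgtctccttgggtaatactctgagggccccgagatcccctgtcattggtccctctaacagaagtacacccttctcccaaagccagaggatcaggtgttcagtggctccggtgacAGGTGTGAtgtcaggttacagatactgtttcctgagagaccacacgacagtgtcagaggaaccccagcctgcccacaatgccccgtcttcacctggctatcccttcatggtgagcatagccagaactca
Tmc1, chr19:20954153-20954452, minus strand: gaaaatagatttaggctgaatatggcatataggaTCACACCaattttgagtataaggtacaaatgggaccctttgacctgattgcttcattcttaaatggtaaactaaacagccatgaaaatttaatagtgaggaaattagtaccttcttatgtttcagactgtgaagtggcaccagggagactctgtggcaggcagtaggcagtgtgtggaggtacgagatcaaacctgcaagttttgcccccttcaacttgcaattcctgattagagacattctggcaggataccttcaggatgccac

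A match of letters is a description and not a binding site. The E-box CAGCTG, in its form bound by the hair cell factor ATOH1, was in 8 members (25.8%) and in 16.1% of all promoters. Of these 8, Espn, Lhfpl5 and Tmie had an unadjusted p under 0.05, as did 11 of the 36 tested members (30.6%). The others were Myo15, Myo7a, Pcdh15, Pdzd7 and Rdx, with log2 ratios of -0.03, 0.09, -0.08, -0.08 and 0.11. The half-site GTTGCC of RFX factors was in 2 members (6.45%), as against 12.7% of all promoters. The Gfi1 letters AAATCAGC were in none of the 31 and in 0.873% of all promoters.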

How the data were processed

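The authors deposited unnormalized spot intensity values from Agilent Feature Extraction 10.7.3.1, as per the file headers, with a log10 ratio of red over green in the same deposited files, and a signed fold change per probe in a value table made by the authors with steps not given in the sources used here. From the intensity values, background was corrected with normexp (offset 50) in limma 3.58.1 (R 4.3.3), dyes were balanced by loess within arrays, spots flagged as outliers and control spots were left out, and the 4 spots of a probe were averaged. Ratios were turned to log2 of Sox2-Tbx2LOF over control. Channel levels are on the log2 scale after quantile adjustment of the mean intensity. The filter on dim probes asked that more than a 0.5 share of the spots exceed background well, on 3 or more arrays of either group, which left 28079 of 39429. limma was fitted with dye as a covariate, with Benjamini-Hochberg adjustment over all tested probes. The study's methods name SAM, which was run as an alternative. Genes with an unadjusted p under 0.05 were given in full, and the others by estimate. The fit was tested on simulated data. In the main fit, p-values rest on the spread of log2 ratios between the female and male arrays of each dye orientation. limma moderated this spread over all tested probes. Members and lists were chosen with earlier results of these data known. Probe positions are those of mm9 in the array files.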

Additional observations from a re-analysis of the deposited data

Results flagged for a closer look

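Lone values were looked for in 108 sets of 4, where chance marks about 1 in 20. A set stood out where the gap between 1 value and its neighbour, divided by the range, exceeded the 95% limit of Dixon for 4 values. This was so for the Pdzd7 log2 ratio (0.866, array 4 at -0.21) and its Sox2-Tbx2LOF level (0.833, pool 1 at 9.40). It was also so for the control levels of Clic5 (0.868, pool 1 at 12.56) and Grxcr2 (0.842, pool 1 at 10.07). Control pool 1 was likewise the lowest control for Strc and for other members, among them Espnl and Ptprq. Of the 7 general hair cell markers it was the lowest control for Calb1, Chrna10 and Lhx3. For Atoh1, Barhl1, Gfi1 and Pou4f3 it was not.

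In 2 members the female pairs moved one way and the male pairs the other. How often this occurs over all tested probes was not counted, so that 2 of 36 is not a result about the members. The female minus male difference of the log2 ratio was -0.20 for Myo3b and 0.19 for Cdh23. limma's test of this difference gave adjusted p = 1.00 for both.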

How the results depend on the processing

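Over 16 alternative settings, between 23 and 26 members were higher and the median log2 ratio of the members stayed between 0.05 and 0.09. No member was called in any setting, except that 1 was called once the minimum fold was dropped. The number at an adjusted p under 0.05 fell to 0 without a dye term, with the 8 pools treated as unpaired, with the scanner's own log ratios and with the authors' value table. The number over all 28079 tested probes fell too, from 277 in the main fit to 116, 125, 238 and 2 in these settings. The fall was thus not particular to the members. Strc had ratios of 0.38, 0.38, 0.41 and 0.42 there (adjusted p = 0.158, 0.447, 0.0556 and 0.401), and SAM did not select it. The cause was not tested. The 11 members with an unadjusted p under 0.05 kept their direction in all settings. They were chosen by p on these same arrays, so that this is no further support for them. Among the 36, up to 4 members near 0 changed sign, and in 10 of 16 settings none did. Dropping the dye term, adding a sex term, fitting the pools unpaired, SAM and changing the dim-probe filter left each member's estimate unchanged. These settings could therefore not change a sign. Leaving out each array in turn gave 24 to 26 members higher, medians of 0.05 to 0.07, 0 called and 1 at an adjusted p under 0.05. Without array 1 that member was Ush1g in place of Strc. No sex difference was called with dim probes included (0 members). The number of arrays limits the precision. The test of the ratio within an array pairs the pools of that array by construction, and the unpaired fit above is the alternative to it.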
